A study of Mus musculus with 7 samples.

Results

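The genes of oxidative phosphorylation were followed through single nuclei of the mouse striatum. Members were all gene rows whose whole symbol begins as a subunit name of respiratory complexes I to V, as Cycs (cytochrome c) or with mt-, the prefix of the mitochondrial genome. This rule found 98 of the 27998 genes, 85 nuclear and 13 mitochondrially encoded. Of the nuclear members, 35 belong to complex I, 4 to complex II, 9 to complex III, 19 to complex IV (Ndufa4 included), 15 to complex V and 1 is Cycs. Atp5s and Atp5sl match the rule by name but are not subunits. The mitochondrial genes comprise 7 of complex I, 1 of complex III, 3 of complex IV and 2 of complex V.

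The study profiled striatal nuclei from 3 wild-type (WT) and 4 HttQ175/+ mice, 1 library per mouse. HttQ175/+ mice are heterozygous knock-in animals that model Huntington's disease, with an expanded CAG repeat in 1 copy of Htt in every cell. All mice were C57BL6/J males of 14 months, except HttQ175/+ replicate 1, which was 15 months old. The authors' annotation gave 4524 nuclei in 12 cell types, among them D1.MSN and D2.MSN, the direct and indirect pathway spiny projection neurons.

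The respiratory chain passes electrons from NADH (complex I) or succinate (complex II) through complex III and cytochrome c to oxygen at complex IV, and complex V makes ATP from the proton gradient this builds. Most subunits are made from nuclear genes and imported, while a small core is transcribed and translated inside the mitochondrion, outside the nucleus. Spiny projection neurons are the cells most affected in the striatum in Huntington's disease, and impaired striatal energy metabolism is a long-studied feature of it.

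Counts are of unique molecular identifiers (UMIs), 1 per captured transcript end, given per 1000000 UMIs (CPM), averaged over nuclei and not divided by gene length. Levels of different genes are therefore not ranked against each other. Nuclei held 1128 to 5632 UMIs, of 10253253 in all. Nuclear members took 46056 UMIs or 0.449% of all UMIs, and mitochondrial members 29740 or 0.290%, and 241 of 1809 D1.MSN held 10 or more mitochondrial UMIs. Median UMIs per nucleus in D1.MSN ran from 2716 to 2816 in WT and from 1647 to 2636 in HttQ175/+ mice, and in D2.MSN from 2398 to 2660 and from 1547 to 2391. Neither pair of ranges overlapped, with an exact two-sided permutation p of 0.0571 in both types (35 splits). Malat1, an RNA kept in the nucleus, was at 167578 to 187573 CPM in D1.MSN of WT and 130612 to 154590 CPM in HttQ175/+ mice. With all nuclei thinned to 1100 UMIs, 0 of the 65 members still testable in D1.MSN and 0 of 24 in D2.MSN passed the genotype test described below, and the part of Malat1 was not tested. Each tested cell type ranked first of the 12 types for its own marker list, and 3 cell barcodes were shared between libraries.

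Several complex IV subunits exist as a general form and a tissue-restricted form, and the restricted forms were found in different cell types. These patterns were noticed among the 12 types after their values were seen, so they are descriptions without a test. The pair Cox6b1 and Cox6b2, which encode alternative forms of a subunit on the outer face of complex IV, is shown with Cox6a1, the general partner of Cox6a2, by the stretch before the annotated start. Sequences are from the RefSeq promoter table on build GRCm38.p6, all on the minus strand, cut where the first GENCODE exon begins, at chr7:30626152-30626364, chr7:4753095-4753344 and chr5:115348982-115349208. Capitals mark matches on either strand to GCGCATGC (core of the NRF1 motif) or GGGCGG (GC box); CCGGAAG (ETS family) and AAGATGGC (YY1) were also searched and are not in these 3 stretches. In Cox6a1 the NRF1 core matches on both strands, and these matches overlap.
Cox6b1: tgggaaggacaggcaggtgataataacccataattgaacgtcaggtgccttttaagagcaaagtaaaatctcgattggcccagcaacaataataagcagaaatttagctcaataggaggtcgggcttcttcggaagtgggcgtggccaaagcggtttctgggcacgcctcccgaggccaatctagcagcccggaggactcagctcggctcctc
Cox6b2: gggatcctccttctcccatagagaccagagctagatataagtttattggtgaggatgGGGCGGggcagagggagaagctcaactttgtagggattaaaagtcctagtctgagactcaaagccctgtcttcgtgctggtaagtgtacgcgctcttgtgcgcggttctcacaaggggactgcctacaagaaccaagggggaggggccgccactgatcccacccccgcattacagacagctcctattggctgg
Cox6a1: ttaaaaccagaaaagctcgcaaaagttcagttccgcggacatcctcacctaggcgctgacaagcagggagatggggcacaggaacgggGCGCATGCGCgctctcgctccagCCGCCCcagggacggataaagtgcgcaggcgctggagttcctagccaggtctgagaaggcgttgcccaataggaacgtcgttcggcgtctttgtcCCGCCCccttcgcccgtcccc
Cox6a1 held this NRF1 pair and 2 GC boxes, Cox6b2 held 1 GC box, and Cox6b1 held no match to the letters searched. In full windows of 300 bases (250 before and 50 after the start), 67 of the 85 nuclear members had 72 windows. The NRF1 letters were in 15.3% of these and in 2.71% of all 32851 windows, ETS in 22.2% and 8.86%, YY1 in 12.5% and 2.75%, and the GC box in 38.9% and 35.7%.

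Cox6a2 (chromosome 7, 128205435 to 128206387, minus strand, mm10), the heart and skeletal muscle form of subunit 6a, was found mainly in IN-Pnoc/Pvalb nuclei, a class of GABAergic interneurons. Of its 73 UMIs, 53 (72.6%) lay in these 120 nuclei, where 39 nuclei or 32.5% (exact 95% interval 24.2 to 41.7%) held at least 1. In D1.MSN, which serve as the background, 7 of 1809 nuclei or 0.387% held a Cox6a2 UMI, at median depths of 2525 and 2175 UMIs. With every nucleus thinned to 1100 UMIs the shares were 19.2% and 0.111%. By mouse, Cox6a2 in IN-Pnoc/Pvalb was 303, 124 and 262 CPM in WT replicates 1 to 3 and 134, 194, 0 and 153 CPM in HttQ175/+ replicates 1 to 4. The genotypes overlapped, and the mouse at 0 had 5 such nuclei. Pvalb, which marks fast-spiking interneurons, had a UMI in 31 of the 120 nuclei. Of those 38.7% (exact 95% interval 21.9 to 57.8%) held Cox6a2, against 30.3% (21.0 to 41.0%) of the other 89, and these intervals overlap. Pnoc itself was found in only 1 of the 120 nuclei, although the type ranked first of the 12 for the summed markers Pvalb, Pnoc, Pthlh and Kit. Cox6a1 was spread over all 12 types and reached 7.5% of the same nuclei. Over all nuclei, Cox6a1 had 371 UMIs in 169 nuclei and Cox6a2 had 73 in 57. Shares of nuclei therefore do not rank the general and the restricted form by amount. Cox8b, another muscle form, gave 3 UMIs in the whole series, all in IN-Pnoc/Pvalb.

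Cox4i2 (chromosome 2, 152754173 to 152765037, plus strand), the lung form of subunit 4 known for its oxygen-dependent regulation, was found mainly in nuclei annotated as Endothelial cells. They held 37 of its 46 UMIs (80.4%), in 26 of 112 nuclei or 23.2% (15.8 to 32.1%). D1.MSN held it in 1 of 1809 nuclei or 0.0553%, and the median depths were 1725 and 2175 UMIs. All 7 mice had Cox4i2 there, at 177, 110 and 97.4 CPM in WT and 202, 111, 376 and 214 CPM in HttQ175/+ mice, and the genotypes overlapped. All 26 nuclei were among the 94 with a UMI of Rgs5 or Vtn, genes typical of pericytes, and none among the 18 without. Those 0 of 18 nuclei allow a share of up to 18.5% (exact interval), and 103 of the 112 nuclei also held Cldn5, Flt1 or Pecam1, which are endothelial. The general form Cox4i1 was found in all 12 types, in 27.7% of these nuclei and 9.56% of D1.MSN. Over all nuclei, Cox4i1 had 1334 UMIs in 524 nuclei and Cox4i2 had 46 in 35, so these shares do not rank the forms by amount.

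Cox6b2, described as a testis form, was found in glia. Astrocytes held 23 and oligodendrocytes 27 of its 65 UMIs, in 7.0% (4.39 to 10.5%) and 5.34% (3.49 to 7.78%) of nuclei, and Polydendrocytes, the oligodendrocyte progenitors, in 5.13% (1.41 to 12.6%). D1.MSN held it in 0.332% (0.122 to 0.721%). Every mouse had at least 1 Cox6b2 UMI in astrocytes and in oligodendrocytes. Levels in astrocytes were 11.6, 82.3 and 57.5 CPM in WT and 80.6, 32.7, 25.2 and 9.13 CPM in HttQ175/+ mice, which overlapped. Cox6b1 was in 4.33% of astrocytes and 4.15% of D1.MSN. Over all nuclei, Cox6b1 had 379 UMIs in 188 nuclei and Cox6b2 had 65 in 61, so their shares are not ranked by amount either. Of the remaining restricted forms, Cox7a1 had 10 UMIs over 5 types, Cox7b2 26 UMIs over 8 types with 12 in D1.MSN, and Cox8c 1. Because all of these fell below the filter, they entered no genotype test.

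**Figure D1:**
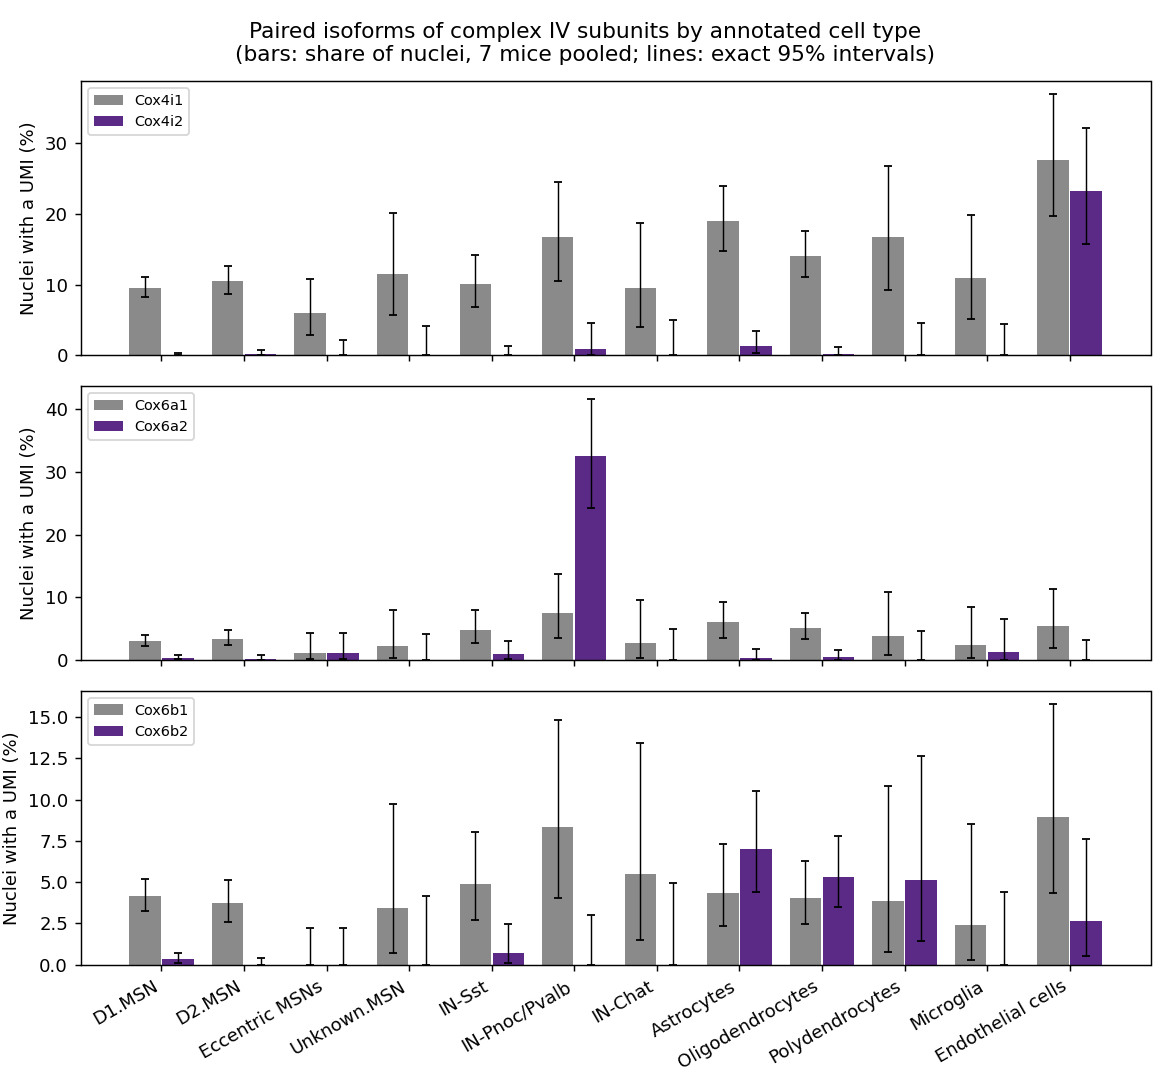
Share of nuclei with at least 1 UMI of the general form (grey) and the restricted form (purple) of 3 complex IV subunits in the 12 annotated cell types, nuclei of 7 mice pooled, with exact 95% intervals for counting error only. Cox4i2 stands out in Endothelial cells (23.2%), Cox6a2 in IN-Pnoc/Pvalb (32.5%) and Cox6b2 in astrocytes (7.0%), oligodendrocytes (5.34%) and Polydendrocytes (5.13%). UMIs per nucleus with the gene differed between the forms, so grey and purple bars do not rank them by amount.

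Mitochondrial transcripts are made outside the nucleus, so their levels in purified nuclei are not levels of whole cells. How they came to be in these nuclei was not tested. The 13 mitochondrial transcripts differed more between cell types than the nuclear members did. Their summed level in D1.MSN was 2721, 971 and 3384 CPM in WT replicates 1 to 3 and 2199, 2336, 1094 and 1465 CPM in HttQ175/+ replicates 1 to 4. In D2.MSN it was 2202, 1003 and 3922 CPM in WT and 2168, 3023, 863 and 1557 CPM in HttQ175/+ mice. WT replicate 2 and HttQ175/+ replicate 3 were the 2 lowest mice and WT replicate 3 the highest in both neuron types. Astrocytes reached 8017, 4926 and 5298 CPM in WT and 10275, 10600, 6690 and 6576 CPM in HttQ175/+ mice, above the D1.MSN value of the same mouse in all 7. Endothelial cells, with a median of 15805 CPM over mice (4 of 7 with at least 10 such nuclei), were higher still, and Eccentric MSNs, another class of spiny projection neuron, were low at a median of 416 CPM.

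Mitochondrial UMIs were unevenly spread over nuclei. At least 1 was found in 37.9% of D1.MSN, 39.6% of D2.MSN, 52.4% of oligodendrocytes, 70% of astrocytes and 93.8% of Endothelial cells. After thinning to 1100 UMIs these shares were 32.8%, 36.2%, 49.4%, 67.3% and 92.0%. In D1.MSN, the tenth of nuclei with most mitochondrial UMIs held 71.2% of them. The mixture was alike in the 7 cell types with at least 500 mitochondrial UMIs. There mt-Co1 (a core subunit of complex IV) made up 20.8 to 26.1%, mt-Co3 17.9 to 20.3%, mt-Atp6 (complex V) 12.03 to 17.04%, mt-Co2 12.4 to 15.4%, mt-Nd4 (complex I) 7.94 to 9.79% and mt-Cytb (complex III) 4.89 to 6.04%. Neighbouring mitochondrial genes share bases, 43 between mt-Atp8 and mt-Atp6 and 7 between mt-Nd4l and mt-Nd4, and mt-Nd5 lies over mt-Nd6 on the other strand for 14. Reads in the stretches shared on the same strand cannot be assigned with certainty, and those of mt-Nd5 and mt-Nd6 can be told apart only by strand.

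**Figure D2:**
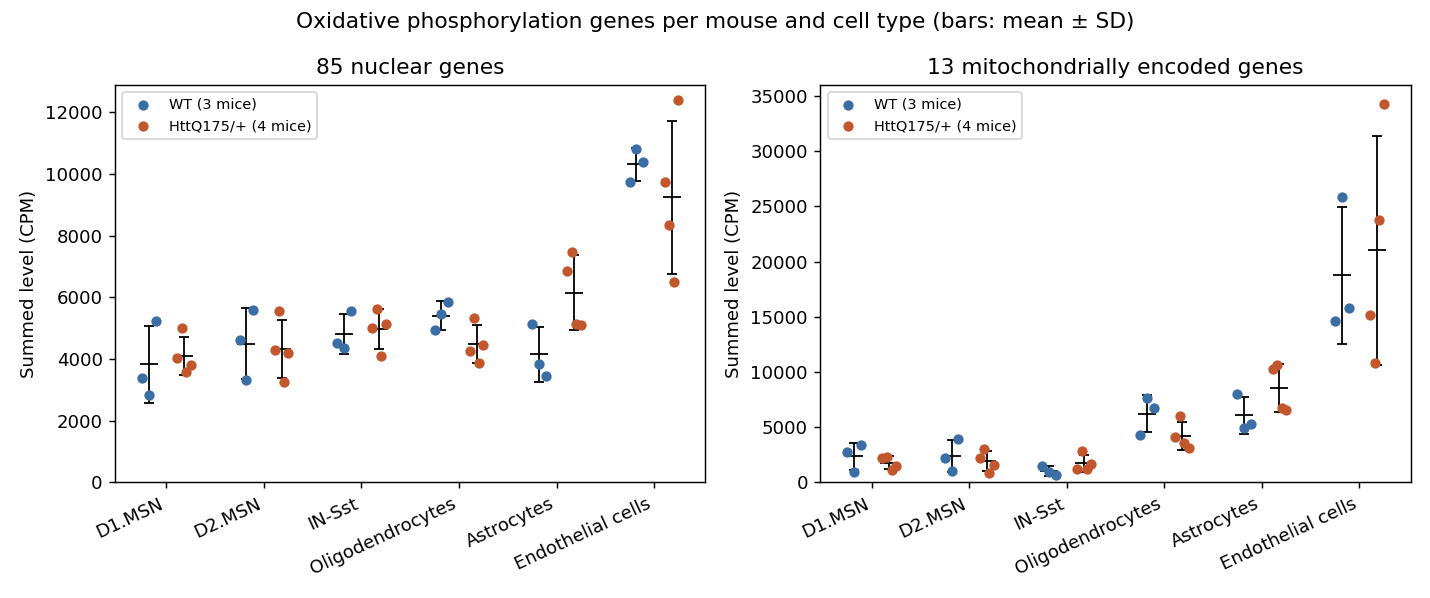
Summed level in CPM of the 85 nuclear (left) and 13 mitochondrial genes (right) for each mouse, by cell type and genotype, with mean ± SD (n = 3 WT, 4 HttQ175/+). In D1.MSN and D2.MSN the genotypes overlap in both sums; mitochondrial sums rise from 863 to 3922 CPM in these neurons to 4926 to 10600 CPM in astrocytes.

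The most counted nuclear members of each complex spread over the 7 mice by different amounts in D1.MSN, each given as its lowest, median and highest mouse. Ndufs1, the iron-sulfur subunit of complex I, ran from 73.7 through 97.4 to 121 CPM, with Ndufa10 from 59.3 to 119 and Ndufa13 from 32.1 to 119 CPM. Sdha, the flavoprotein of complex II, ran from 43.7 through 56.1 to 169 CPM. HttQ175/+ replicate 4 alone held the value of 169, and the other 6 mice lay at or below 69.5 CPM. Uqcrc1, a core protein of complex III, was listed at 0 in WT replicate 2 and between 56.2 and 93.4 CPM in the other 6 mice. WT replicate 2 had 334640 UMIs in D1.MSN. Why Uqcrc1 was listed at 0 there was not tested, and this 0 is not read as absence of the transcript. Over all nuclei, Cox5b had 452 UMIs in 204 nuclei and Sdhb 615 in 564. Why UMIs per nucleus with the gene differed in this way was not tested. Zeros and shares of nuclei with a UMI are given as deposited. Cox7c of complex IV ran from 134 through 163 to 228 CPM, Atp5b, the catalytic beta subunit of complex V, from 109 through 179 to 208 CPM, and Cycs from 27.7 through 43.8 to 64.2 CPM.

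Compared within each mouse, D1.MSN nuclei held lower levels of mitochondrial transcripts than astrocyte nuclei. In this comparison 11 of 11 tested genes passed the threshold (adjusted p under 0.05, limma, over all genes tested). Lower levels were called for 9.07% of all 9010 genes and higher ones for 31.9%. mt-Co1 was 590, 206 and 693 CPM in D1.MSN of WT and 445, 613, 196 and 296 CPM in HttQ175/+ mice. In astrocytes it was 1920, 778 and 1697 CPM in WT and 2682, 2544, 1749 and 1579 CPM in HttQ175/+ mice. On the log2(CPM + pseudocount) scale, D1.MSN was lower by a difference of -1.90 ± 0.16 (SE, adjusted p = 1.09e-11, limma), in 7 of 7 mice. The next largest differences were mt-Co2 at -1.73, mt-Co3 at -1.67, mt-Nd1 at -1.63 and mt-Cytb at -1.60. The median over the 11 was -1.55, beside 0.31 over all genes tested.

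Nuclear members showed differences in both directions against astrocytes, 3 higher and 8 lower in D1.MSN of 77 tested, with a median of 0.04, a balance that other choices of nuclei turned, as given after the oligodendrocytes. The higher ones were Sdhd (membrane anchor of complex II) at 0.89 ± 0.24, Atp5g3 (c subunit of complex V) at 0.88 and Atp5k (subunit e of complex V) at 0.83. Atp5k was listed at 0 in 4 of 7 mice in astrocytes. The lower ones included Cox4i1 (subunit 4 of complex IV) at -0.82 ± 0.23, Ndufc2 (complex I) at -0.82, Ndufb11 (complex I) at -0.71, Cox8a (complex IV) at -0.69 and Cyc1 (cytochrome c1 of complex III) at -0.67. Cox8a was 100 to 186 CPM in D1.MSN and 169 to 367 CPM in astrocytes, lower in D1.MSN in 7 of 7 mice. Cox6c, Atp5g2 and Ndufs7 were the other 3.

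Oligodendrocytes gave a like comparison, which shares its D1.MSN values with the one above. D1.MSN was lower for 9 of the 11 mitochondrial genes, with lower levels called for 11.7% of all 9000 genes and higher ones for 25%. The largest differences were mt-Co2 at -1.51 ± 0.20, mt-Co3 at -1.42, mt-Co1 at -1.36, mt-Cytb at -1.24 and mt-Atp6 at -1.21, while mt-Nd3 (-0.51, adjusted p = 0.101, limma) and mt-Nd4l (-0.48) did not pass. Of 77 nuclear members 8 were lower, led by Ndufa2 (complex I) at -0.91 ± 0.23, Cox4i1 at -0.87, Ndufb9 at -0.83, Ndufb11 at -0.83 and Ndufa7 at -0.74. The 3 higher ones were Ndufs3 (a core subunit of complex I) at 0.73, Atp5k at 0.65 and Atp5sl at 0.64. Ribosomal protein mRNAs, which are mostly cytosolic, were lower in D1.MSN than in oligodendrocytes for 29 of 75, beside 11.7% of all genes. They were lower than in astrocytes for 7 of 75, near the 9.07% of all genes. Their part in these differences was not tested.

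When both types were restricted to nuclei with under 1% mitochondrial UMIs (4063 of 4524, a selection on the measure itself), the sign turned against oligodendrocytes for mt-Nd1 (0.23), mt-Nd4 (0.19), mt-Nd5 (0.18) and mt-Atp6 (0.09). mt-Co1 and mt-Co3 still passed. Against astrocytes 6 of the 10 mitochondrial genes that could still be tested passed as lower, mt-Co1 at -1.06 among them, while Cox6c turned to 0.06. The balance of the nuclear members turned as well. In these nuclei 9 were called higher and 0 lower against astrocytes, and 10 higher and 2 lower (Cox4i1 and Ndufb11) against oligodendrocytes, where Ndufa2 was at -0.45 (adjusted p = 0.181, limma). Thinned to 1100 UMIs, 6 nuclear members were higher and 2 lower (Ndufb11 and Ndufc2) against astrocytes, and 5 higher and 3 lower against oligodendrocytes. The direction of the nuclear calls between D1.MSN and glia thus depended on which nuclei and what depth were compared. In the main fits, higher calls outnumbered lower ones over all genes, 31.9% and 9.07% against astrocytes, 25% and 11.7% against oligodendrocytes. Shares of all genes under the other settings are not given, so the turn is not read as particular to the members.

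**Figure D3:**
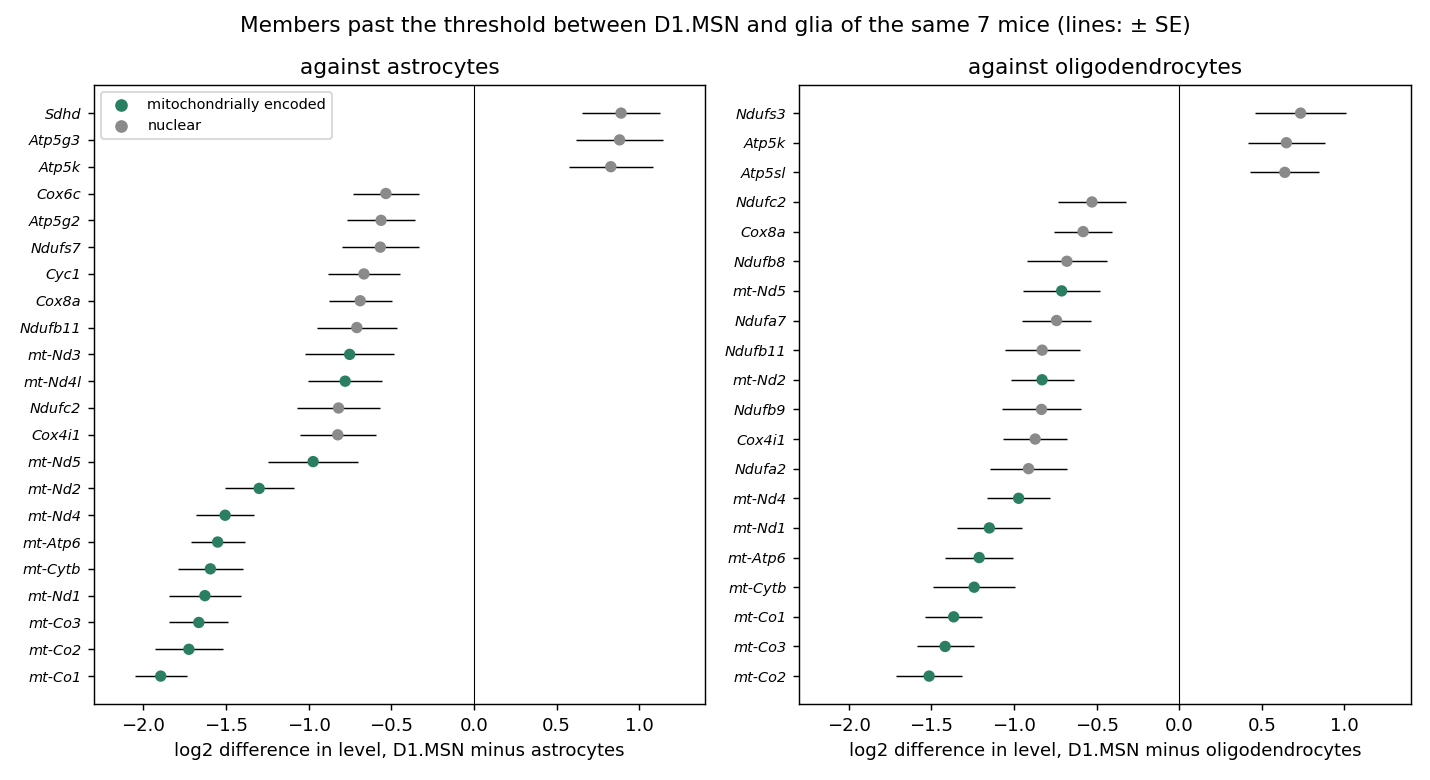
Members past the threshold in the level of D1.MSN minus that of astrocytes (left) or oligodendrocytes (right) within the same 7 mice, as log2 differences ± SE; green marks mitochondrial and grey nuclear genes. All mitochondrial genes shown lie below 0, from -0.71 to -1.90, and nuclear genes lie on both sides.

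Between the 2 spiny projection neuron types, 1 member passed. Ndufa2, an accessory subunit of complex I, was lower in D1.MSN by a log2 difference of -0.88 ± 0.22 (adjusted p = 0.0243, limma), where 1.93% of the 8801 genes tested were called. Its level was 7.6, 24.4 and 37.4 CPM in D1.MSN of WT and 42.4, 82.0, 16.0 and 11.8 CPM in HttQ175/+ mice. In D2.MSN it was 44.4, 30.3 and 104 CPM in WT and 34.2, 76.6, 77.5 and 40.2 CPM in HttQ175/+ mice. D1.MSN was lower in 5 of 7 mice, and the call did not hold without WT replicate 1 (adjusted p = 0.167), WT replicate 3 (0.131), HttQ175/+ replicate 3 (0.128) or HttQ175/+ replicate 4 (0.0958, limma), or with no filter on low genes (0.269). At 1100 UMIs Ndufa2 was too low to be tested. The 11 mitochondrial genes had a median difference of 0.06 and the 77 nuclear ones of -0.07, beside 0.04 over all genes.

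The genotype comparison asked whether mutant huntingtin changes these levels in each cell type. In D1.MSN, where 3.94% of the 8796 genes tested were called, none of the 88 members tested (77 nuclear, 11 mitochondrial) passed. Unadjusted p-values under 0.05 were found for 9 nuclear and 1 mitochondrial member, beside 17.7% of all genes. The fitted log2 differences of nuclear members ran from -0.89 to 1.5 with a median of -0.04 (all genes 0.03). The SE over all 88 members had a median of 0.35. By complex the medians were -0.04 for complex I, 0.13 for II, 0.24 for III, -0.08 for IV and -0.18 for V. Mitochondrial genes had a median of -0.43, with 2 of 11 above 0. The summed nuclear level was 3374, 2847 and 5250 CPM in WT and 4023, 4992, 3586 and 3806 CPM in HttQ175/+ mice, and the genotypes overlapped.

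In each complex the member with the smallest p in D1.MSN also failed to pass. Ndufa3 (complex I) was 5.15, 10.3 and 43.9 CPM in WT and 49.0, 42.0, 56.4 and 47.2 CPM in HttQ175/+ mice. WT replicate 3 lay within the HttQ175/+ range, and the difference was 1.43 ± 0.43 (adjusted p = 0.0890, limma). Sdhc (complex II) differed by 0.15, Uqcrq (complex III) by 0.83, Cox7a2l (complex IV) by 0.67, Atp5o (complex V) by -0.64 and mt-Nd4l by -0.88 ± 0.32 (adjusted p = 0.157, limma). mt-Nd4l was 40.3, 38.6 and 41.2 CPM in WT and 35.1, 30.3, 11.1 and 18.4 CPM in HttQ175/+ mice. It was 1 of 3 members, with Cox7a2l and Ndufs8, whose genotypes did not overlap, where 16.1% of all genes did not.

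D2.MSN gave a similar count, 0 of 65 members past the threshold, where 2.44% of 5908 genes were called; 6 nuclear and 1 mitochondrial member had an unadjusted p under 0.05, beside 15.1% of all genes. Cox7b, a small complex IV subunit encoded on the X chromosome, was 75.3, 58.3 and 63.3 CPM in WT and 36.7, 35.4, 9.01 and 6.63 CPM in HttQ175/+ mice. These ranges did not overlap, and the difference was -1.55 ± 0.42 (adjusted p = 0.0702, limma). Atp5a1, the alpha subunit of complex V, was 177, 186 and 187 CPM in WT and 126, 136, 67.7 and 107 CPM in HttQ175/+ mice, a difference of -0.86 ± 0.24 (adjusted p = 0.0785, limma). Ndufa4 (complex IV) at -0.74 and Atp5g3 at -0.65 also had ranges apart, as 13.8% of all genes did. Medians were 0.03 for complex I, -0.21 for II, -0.04 for III, -0.47 for IV, -0.27 for V and -0.19 for mitochondrial genes, beside 0.00 for all genes.

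**Figure D4:**
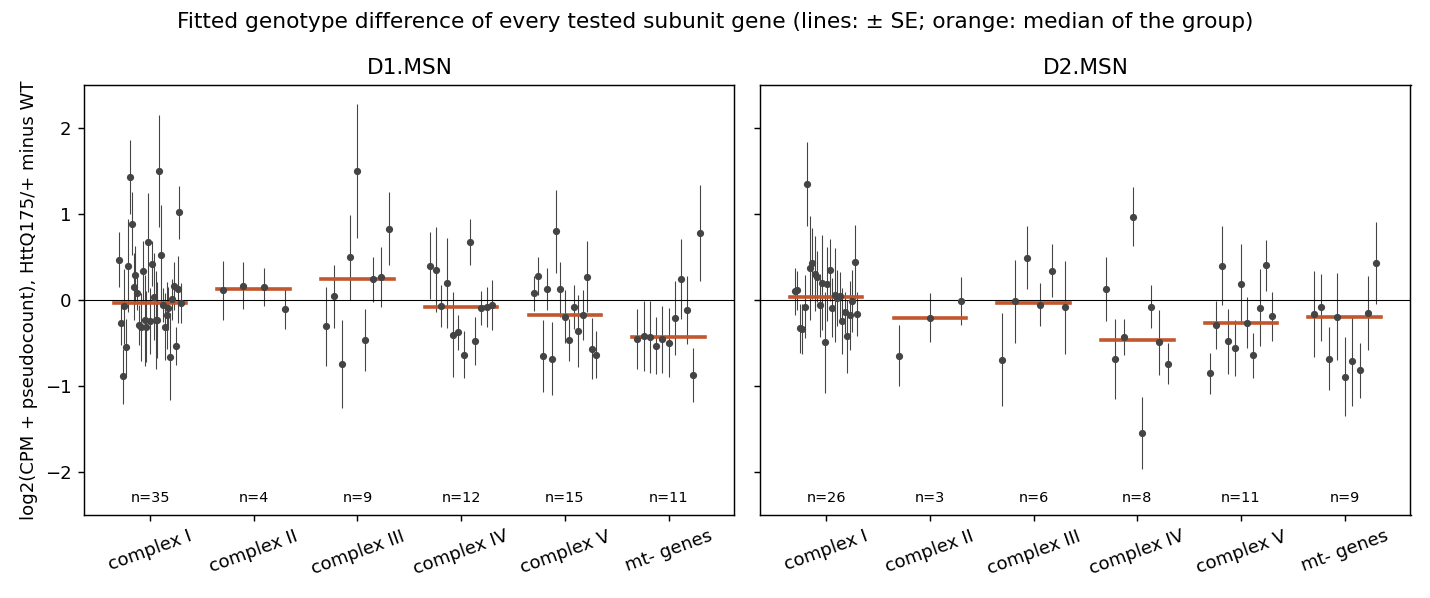
Fitted genotype difference (HttQ175/+ minus WT, log2 of CPM + pseudocount, ± SE) for every tested subunit gene by complex in D1.MSN and D2.MSN; orange lines are group medians and n is the number of genes. No gene shown passed the threshold, and medians lie between -0.47 and 0.24.

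When D1.MSN and D2.MSN of each mouse were averaged, 1 of 88 members passed, Cox7a2l, where 2.09% of 8801 genes were called higher and 5.26% in either direction. Cox7a2l (chromosome 17, 83501918 to 83517330, minus strand, mm10) encodes a protein described as a factor that joins complexes III and IV into supercomplexes. Neither its allele in these C57BL6/J mice nor any supercomplex was examined. Its level in D1.MSN was 24.5, 52.2 and 65.0 CPM in WT and 74.1, 85.9, 76.3 and 77.4 CPM in HttQ175/+ mice. In D2.MSN it was 67.4, 16.4 and 46.0 CPM in WT and 76.9, 128, 67.8 and 95.4 CPM in HttQ175/+ mice. All 4 HttQ175/+ mice lay above all 3 WT mice in the average, and Cox7a2l rose by 0.79 ± 0.21 on the log2 scale (adjusted p = 0.0412, limma). The call did not hold without HttQ175/+ replicate 1, 2 or 4, WT replicate 1 or WT replicate 2. There the adjusted p lay between 0.0781 and 0.126 (limma) and the difference between 0.60 and 0.83. At equal depth (1100 UMIs) the difference was 0.72 with an adjusted p of 0.124, and with no filter on low genes the adjusted p was 0.0787 (limma). In astrocytes Cox7a2l differed by 1.44 ± 0.69 and did not pass. Ndufa3 (1.26 ± 0.36, adjusted p = 0.0607), Cox7b (-0.99 ± 0.29, adjusted p = 0.0645) and Cox7a2, the subunit that Cox7a2l resembles (-0.86 ± 0.27, adjusted p = 0.0927, limma), came next, and the ranges of Cox7b and Cox7a2 did not overlap either, as those of 17.9% of all genes did not.

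**Figure D5:**
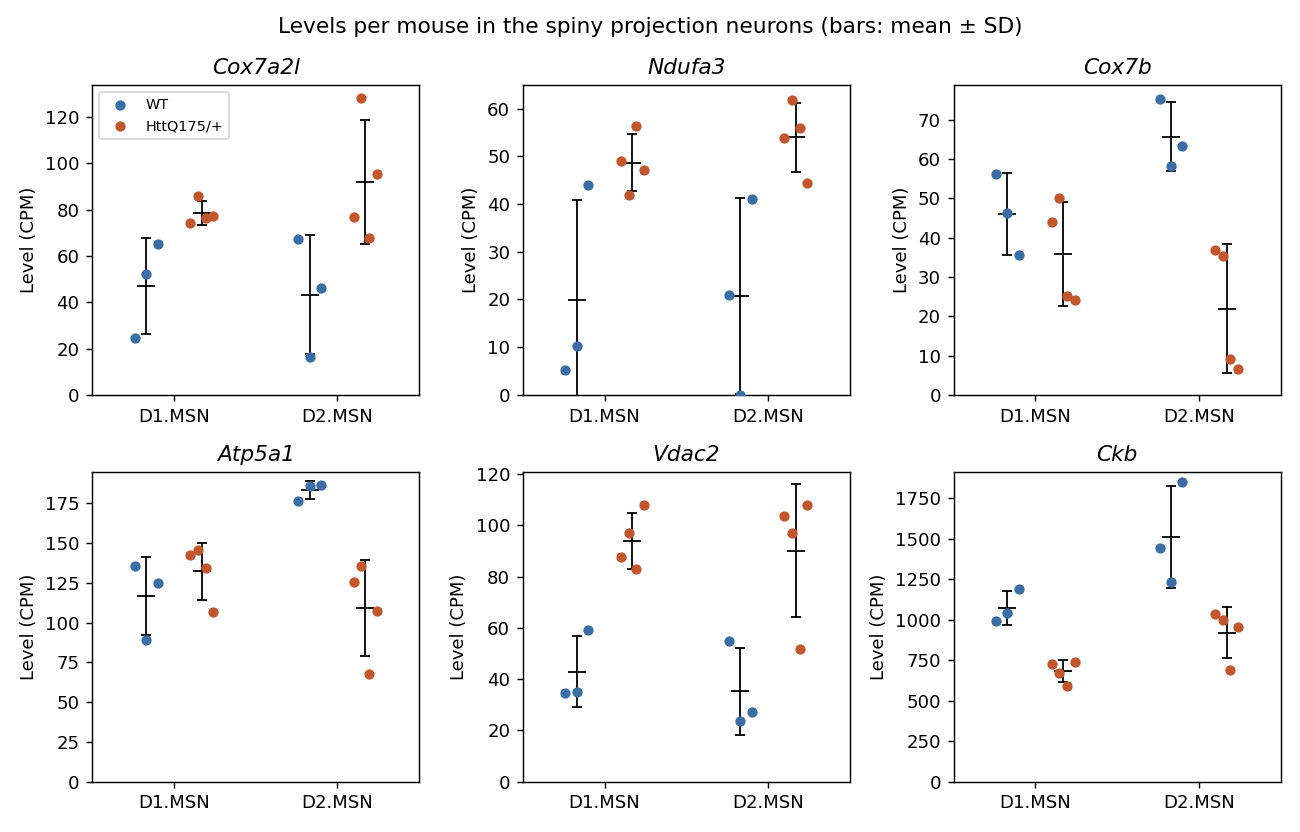
Levels in CPM per mouse in D1.MSN and D2.MSN of 4 members (Cox7a2l, Ndufa3, Cox7b, Atp5a1) and of Vdac2 and Ckb, with mean ± SD (n = 3 WT, 4 HttQ175/+). HttQ175/+ mice lie above WT for Cox7a2l and below WT for Ckb in both types; Cox7b and Atp5a1 separate by genotype in D2.MSN and overlap in D1.MSN.

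The difference of the genotype effect between D1.MSN and D2.MSN was itself tested, and 0 of 88 members passed, where 0.0227% of 8801 genes were called. An unadjusted p under 0.05 was found for 13 nuclear and 2 mitochondrial members, 15 of 88, and for 6.37% of all genes. Atp5a1 had the smallest p, with a difference of differences of 0.93 ± 0.25 (adjusted p = 0.490, limma), followed by Atp5f1 at 1.21, Cox7b at 1.13 and Cox6a1 at 1.28. None of these shows that D1.MSN and D2.MSN responded alike, since their SEs ran from 0.16 to 0.56.

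Glia and Sst interneurons gave no called member either. In astrocytes 0 of 20 members passed and 0% of the 1873 genes tested were called by limma, with 247 (13.2%) at an unadjusted p under 0.05. All 9 mitochondrial genes tested there had positive differences, with a median of 0.42, beside 0.01 over all genes. mt-Nd5 was the furthest apart at 2.03 ± 0.52 (adjusted p = 0.123, limma). The summed nuclear level in astrocytes was 5148, 3839 and 3463 CPM in WT and 6871, 7488, 5132 and 5093 CPM in HttQ175/+ mice, with 2 HttQ175/+ mice within the WT range. Ribosomal protein mRNAs summed to 2868 to 4654 CPM in WT and 5190 to 7833 CPM in HttQ175/+ astrocytes, and Malat1 was at 168834 to 210554 CPM and 138710 to 146513 CPM. Their part in the astrocyte values was not tested.

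In oligodendrocytes 0 of 28 members passed, where 0.63% of 3650 genes were called, and all 8 mitochondrial genes tested had negative differences, with a median of -0.61. At an unadjusted p under 0.05 were 1 nuclear and 4 mitochondrial members and 13.4% of all genes. Cox6c (complex IV) had the smallest p, with a difference of -1.16 ± 0.41 (adjusted p = 0.196, limma). In Sst interneurons 0 of 15 members passed and 0% of 2296 genes were called by limma, with 176 (7.67%) at an unadjusted p under 0.05. Their 6 mitochondrial genes all had positive differences; mt-Co1 had the smallest p at 1.06 ± 0.32 (adjusted p = 0.571, limma), and mt-Atp6 differed by 1.21 ± 0.67. The sign of the mitochondrial median thus differed between types, but the difference between these types was not tested.

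Among other genes of energy metabolism, few passed the genotype test in spiny projection neurons. The list of mitochondrial carriers, channels and import genes also held Ckb, whose product is cytosolic. Of this list, 1 of 26 tested was higher (Vdac2) and 2 lower (Ckb and Vdac1) in D1.MSN. In D2.MSN 0 were higher and 1 lower (Ckb) of 21. Over all genes, 3.94% were called in D1.MSN and 2.44% in D2.MSN. Ckb, the brain cytosolic creatine kinase that buffers ATP, was 990, 1039 and 1191 CPM in D1.MSN of WT and 729, 668, 591 and 739 CPM in HttQ175/+ mice. Ckb fell by 0.77 in D1.MSN (SE 0.14, adjusted p = 0.00523) and by 0.83 in D2.MSN (SE 0.18, adjusted p = 0.0247, limma). In D2.MSN it was 1446, 1234 and 1851 CPM in WT and 1036, 995, 688 and 957 CPM in HttQ175/+ mice. Neither type overlapped between genotypes. Ckb was also lower in D1.MSN than in D2.MSN by a difference of -0.43 ± 0.06. The D2.MSN call did not hold without WT replicate 1 (adjusted p = 0.0892), WT replicate 3 (0.140) or HttQ175/+ replicate 3 (0.0528, limma). It was also lost at 1100 UMIs (-0.68, adjusted p = 0.106) and without TMM scaling (-0.71, adjusted p = 0.0501, limma).

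Of the 3 voltage-dependent anion channel genes of the outer membrane, Vdac2 and Vdac1 moved in opposite directions in D1.MSN, and Vdac3 differed by -0.13 (adjusted p = 0.867, limma). Vdac2 was 34.6, 35.1 and 59.1 CPM in WT and 87.6, 96.9, 83.0 and 108 CPM in HttQ175/+ mice, and rose by 0.99 (adjusted p = 0.0224, limma). Vdac1 was 88.4, 68.6 and 104 CPM in WT and 64.3, 49.3, 34.5 and 31.5 CPM in HttQ175/+ mice, and fell by 1.05 (adjusted p = 0.0360, limma). The Vdac2 call did not hold without any 1 of 5 mice (adjusted p 0.0537 to 0.0983), nor the Vdac1 call without any 1 of 5 (0.0544 to 0.126). The Vdac1 call was also lost with UMIs summed over nuclei (0.0546), in nuclei under 1% mitochondrial UMIs (0.0630) and at 1100 UMIs (0.0784, limma). In D2.MSN Vdac2 differed by 1.10 (adjusted p = 0.0775) and Vdac1 by -0.51 (adjusted p = 0.478, limma). In the average of both types Vdac2 rose by 1.01 (adjusted p = 0.0104) and Slc25a13, the aspartate and glutamate carrier citrin, by 0.88 (adjusted p = 0.0213, limma). The Slc25a13 call did not hold without WT replicate 1 or 3 or HttQ175/+ replicate 1, 2 or 4 (adjusted p 0.0510 to 0.0795, limma), or with no filter on low genes (0.0608).

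Of 24 tested genes of the tricarboxylic acid cycle and pyruvate entry, 1 was called in D1.MSN, near the 3.94% of all genes. Pdk1, a kinase that inhibits pyruvate dehydrogenase, was 32.6, 37.98 and 35.7 CPM in WT and 66.2, 74.9, 74.8 and 81.9 CPM in HttQ175/+ mice, and rose by 0.89 (adjusted p = 0.0149, limma). That call did not hold without WT replicate 1 (adjusted p = 0.0561) or HttQ175/+ replicate 4 (0.0530, limma). None of 37 assembly factors, 15 genes of mitochondrial biogenesis, 15 of glycolysis or 16 of oxidant defence passed in D1.MSN. Ppargc1a, the biogenesis coactivator often studied in Huntington's disease, was 46.8, 93.5 and 60.2 CPM in WT and 64.4, 72.7, 64.7 and 83.6 CPM in HttQ175/+ mice, with a difference of 0.02 ± 0.22 in D1.MSN and 0.14 ± 0.25 in D2.MSN.

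Some genes of these lists also differed between cell types. Of 16 glycolysis genes tested against astrocytes, 5 were higher in D1.MSN and 1 lower, near the 31.9% and 9.07% of all genes. Aldoc, an aldolase that also marks astrocytes, was lower by -4.04 ± 0.20, while Eno2 (neuronal enolase) was higher by 1.67, Slc2a3 (the neuronal glucose transporter) by 1.64 and Tpi1 by 1.11. Ppargc1b was higher in D1.MSN than in astrocytes (1.79) and oligodendrocytes (1.17), and Ppargc1a was lower than in astrocytes (-0.90) and higher than in oligodendrocytes (0.62). Idh2, the mitochondrial NADP isocitrate dehydrogenase, was lower than in astrocytes (-1.39). Of the 16 oxidant defence genes, 2 were lower in each comparison, near the 9.07% and 11.7% of all genes. These were Prdx1 (-1.09) and Gclm (-0.63) against astrocytes, and Gpx4 (-1.66) and Prdx1 (-1.55) against oligodendrocytes.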

How the data were processed

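Nuclei from frozen striatum were purified over iodixanol and made into Chromium 3' version 3 libraries, per the labels' protocols. The submitters' processing notes name Cell Ranger 3.0.2, Seurat and mm10. Filters on nuclei, doublet removal and use of strand were not given in the sources used here. Deposited values are on a natural log scale, ln(1 + UMIs scaled to 10000 per nucleus), made by the authors. All 5824756 values above 0 came back to whole UMIs (100%, tolerance 0.02). The authors' annotation gave cell type and library, and its genotype matched the labels for 4524 nuclei. No nucleus was left out here, and Scrublet (scanpy 1.11.5) marked 60 or 1.33% as doublets. Of these, 31 were in HttQ175/+ replicate 3, among them 15 of its 177 D1.MSN and 11 of its 93 D2.MSN.

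Members and gene lists were chosen with earlier results of these data known. For each mouse and type, CPM were averaged over nuclei, TMM-scaled and logged as log2(CPM + pseudocount). The pseudocount was the worth of 2 UMIs in the median mouse, 3.67 CPM in D1.MSN, 8.31 in D2.MSN and in comparisons of both, 22.7 for astrocytes, 15.06 for oligodendrocytes and 22.47 for Sst interneurons, so fold changes of low genes are understated. Genes needed 15 UMIs in all and the CPM of 10 UMIs in at least 3 mice; 8 nuclear and 2 mitochondrial members entered no genotype test. limma 3.58.1 (limma-trend, R 4.3.3) tested genes with Benjamini-Hochberg adjustment over each fit, and calls are adjusted p under 0.05. Simulated data were run through the genotype fits of single types and of the difference between D1.MSN and D2.MSN. The average of both types and the level comparisons were not simulated. Types with at least 10 nuclei in 3 mice per genotype were tested: D1.MSN, D2.MSN, astrocytes, oligodendrocytes and IN-Sst. Levels of different types were compared as differences within mice. Printed CPM are unscaled. P-values measure the spread between these mice, 1 library each.

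Genes named were called members, those of smallest p per complex, isoform pairs, the 5 largest type differences per direction and up to 4 called genes per other list; others, such as Atp5f1, Ppargc1a in the genotype test and Gclm, were chosen after their values were seen. Intervals cover counting error only. GENCODE vM21 named 97 of 98 members. The NRF1 core replaced a longer form of the motif after matches to that form had been seen. Near-identical copies of these genes may share reads. Alternatives were no TMM, other pseudocounts and filters, summed UMIs, mitochondrial UMIs left out of the total, nuclei under 1% mitochondrial UMIs, no doublets, equal depth and leaving out each mouse.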

Additional observations from a re-analysis of the deposited data

How the results depend on the processing

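In D1.MSN, 1 member was called without TMM scaling (Ndufv2), with UMIs summed over nuclei (Cox7a2l) and in nuclei under 1% mitochondrial UMIs (Ndufv2). Leaving out a mouse gave 0 to 4. Without WT replicate 2 there were 3, all lower (mt-Atp6, mt-Co2, mt-Cytb). Without WT replicate 3 there were 4, all higher (Ndufa3, Ndufb4, Ndufc1, Ndufv2). In D2.MSN, 1 was called with a pseudocount of 8 UMIs (Cox7b) and with a filter at 30 UMIs (Atp5a1), and 0 without any mouse. In astrocytes leaving out a mouse gave 0 to 1 (mt-Nd5 without WT replicate 2). In the average of D1.MSN and D2.MSN, 2 were called without TMM scaling and with a pseudocount of 8 UMIs, 0 with no filter on low genes and in nuclei thinned to 1100 UMIs, and 0 to 5 when a mouse was left out (5 without WT replicate 2, all lower). Between D1.MSN and D2.MSN levels, 0 were called with no filter, with a filter at 30 UMIs and after thinning, 3 with UMIs summed, and 0 to 2 without a mouse. Against oligodendrocytes 13 in place of 20 members were called with the filter at 30 UMIs, which tests fewer genes; against astrocytes counts ran from 15 to 23. With nuclei under 1% mitochondrial UMIs, mt-Nd1 (0.23), mt-Atp6 (0.0895), mt-Nd4 (0.19) and mt-Nd5 (0.18) against oligodendrocytes and Cox6c (0.0583) against astrocytes reversed; mean mitochondrial sums fell to 1001 (WT) and 896 CPM (HttQ175/+) in D1.MSN, 938 in D2.MSN of HttQ175/+, 1970 and 2351 in astrocytes, 1235 and 1370 in oligodendrocytes and 917 in Sst interneurons of HttQ175/+, by construction, and nuclear sums to 3183 and 4566 CPM in astrocytes and 4034 and 3797 in oligodendrocytes. With UMIs summed, the nuclear sum in WT oligodendrocytes was 4888 CPM. The cause of the other shifts was not tested. With the filter at 30 UMIs no mitochondrial member remained in Sst interneurons. No paired analysis was possible because the labels give no replicate numbers that link mice across genotypes. Depth limits small genes: the median SE per member was 0.35 to 0.38 log2 units in the 5 tested types.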
